A study of Sus scrofa with 75 samples.

Results

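The motile cilia axoneme genes are the annotated pig genes whose symbol begins with DNAH, DNAI, DNAAF, CFAP or RSPH followed by a digit. The rule found 77 genes, of which 43 are CFAP, 13 DNAH, 10 DNAAF, 6 RSPH and 5 DNAI genes, and all 77 are among the 35798 genes measured. Lung, heart, kidney, liver and spleen of male pigs aged 12 months were sequenced as bulk RNA. The short-read data used here are 20 libraries of pigs coded BS and 20 of pigs coded DSE, with 4 animals per code and 5 organs per animal, and the long-read data are 1 library for each code and organ. Neither code is spelled out in the labels, which name no treatment, genotype or allele, and the animal is the number that the code carries in a sample's title. P-values of the short reads measure the spread between these animals. Those of the long reads rest on 1 library per code and organ, so they measure no spread between animals of a code.

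A motile cilium is a membrane-covered bundle of microtubules, the axoneme, with a ring of doublet microtubules around a central pair. Dynein arms, built from heavy chains (DNAH) and intermediate chains (DNAI) and put together in the cytoplasm by assembly factors (DNAAF), slide the doublets against each other, and radial spokes (RSPH) pass signals from the central apparatus to the arms. Many CFAP proteins line the inside of the doublets or dock the arms and spokes. In lung these genes are known for the multiciliated cells of the airway epithelium, which clear mucus and whose programme is switched on by the transcription factor FOXJ1. Many cells outside the airways carry a non-motile primary cilium, which has no dynein arms.

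Levels are given in TPM, a length-scaled share of all transcripts, and differences on the log2(TPM + 1) scale, which understates the change of low genes. The 20 organ markers looked at (such as SFTPC in lung, MYH7 in heart, UMOD in kidney, ALB in liver and SPIC in spleen) each had their highest mean in the labelled organ. In lung, 2 libraries stood apart. The lung of DSE2 held the airway cartilage genes COL2A1 at 16.02 TPM and MATN1 at 18.7 TPM, against at most 0.737 and 0.764 TPM in the other 7 lungs, and the airway secretory gene BPIFA1 at 1596 TPM, against at most 38.1 TPM. BPIFB1, also secretory, had 1240 TPM there, against at most 66.6 TPM in the other lungs, and the basal cell keratins KRT5 and KRT15 were highest there too, at 39.79 and 54.8 TPM. The club cell secretory genes SCGB1A1, SCGB3A1 and SCGB3A2 had 18052, 481 and 111 TPM there, within the range of the other lungs. The alveolar surfactant gene SFTPC, the only 1 given here of 7 alveolar genes measured, was highest in the lung of BS2. It had 53199 TPM there, against 13899 to 33105 TPM in the other 7 lungs. Results in lung are therefore given with and without these animals. In bulk tissue, fewer cells of a type and less RNA per cell cannot be told apart.

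Most axoneme genes were lung genes. Of the 77 members, 65 had their highest mean in lung, 10 in kidney, 1 in heart, 1 in spleen and 0 in liver. These counts over all genes are not given here. For 46 members the lowest lung library lay above the highest of the 32 libraries of the other organs, as it did for 3.13% of all 35798 genes. The summed level of the members was 342, 858 and 1636 TPM (lowest, median and highest library) in lung, 106, 115 and 127 TPM in heart, 362, 533 and 585 TPM in kidney, 67.8, 80.5 and 98.5 TPM in liver, and 139, 165 and 194 TPM in spleen. Kidney came next, and its sum overlapped that of lung through 1 gene, CFAP300. Without CFAP300 the kidneys summed to 261 to 327 TPM, below the lungs at 331 to 1579 TPM. At least 1 TPM on average was reached by 73 members in lung, 29 in kidney, 18 in spleen, 15 in heart and 13 in liver.

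A member was tested if its mean reached 1 TPM in at least 1 organ, which 73 members did, all of them through lung. These members had to be high in lung to be tested when they were low elsewhere, so the calls of such members are no support for the share called. Of the 77 members, 36 averaged below 0.5 TPM in each of heart, kidney, liver and spleen. A gene counted as higher in an organ when limma's differences from all 4 other organs were above 0 and the largest of the 4 p-values, Benjamini-Hochberg adjusted over 16481 genes, was below 0.05. Of the 73 members, 57 were higher in lung, where the rule held for 19.1% of all genes tested. At least 4-fold differences from every other organ were seen for 32 members, against a background of 2.64%. Here and below, 4-fold means a difference of at least 2 on the log2(TPM + 1) scale. Members of low lung level could not reach it whatever their ratio in TPM. Kidney was the leading organ by this test for 2 members (background 15.7%), heart for 1 (6.15%), and liver and spleen for 0 (5.38% and 12.6%).

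The median difference of the tested members was 2.47 for lung minus heart, 1.86 for lung minus kidney, 2.48 for lung minus liver and 2.31 for lung minus spleen on the log2 scale. The same medians over all genes tested were 1.06, 0.35, 1.11 and 0.12, so a share of the first 3 was common to all genes. With median-ratio scaling, which sets those medians to between -0.06 and 0.06, the members' medians were 1.78, 1.39, 1.72 and 1.82, the count higher in lung was 54, and the count at 4-fold was 16. Lung was higher than heart for 72 of the 73 members, than kidney for 63, and than liver and than spleen for 73 each. Such counts over all genes are not given here, and the medians over all genes above also lay toward lung before scaling.

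**Figure D1:**
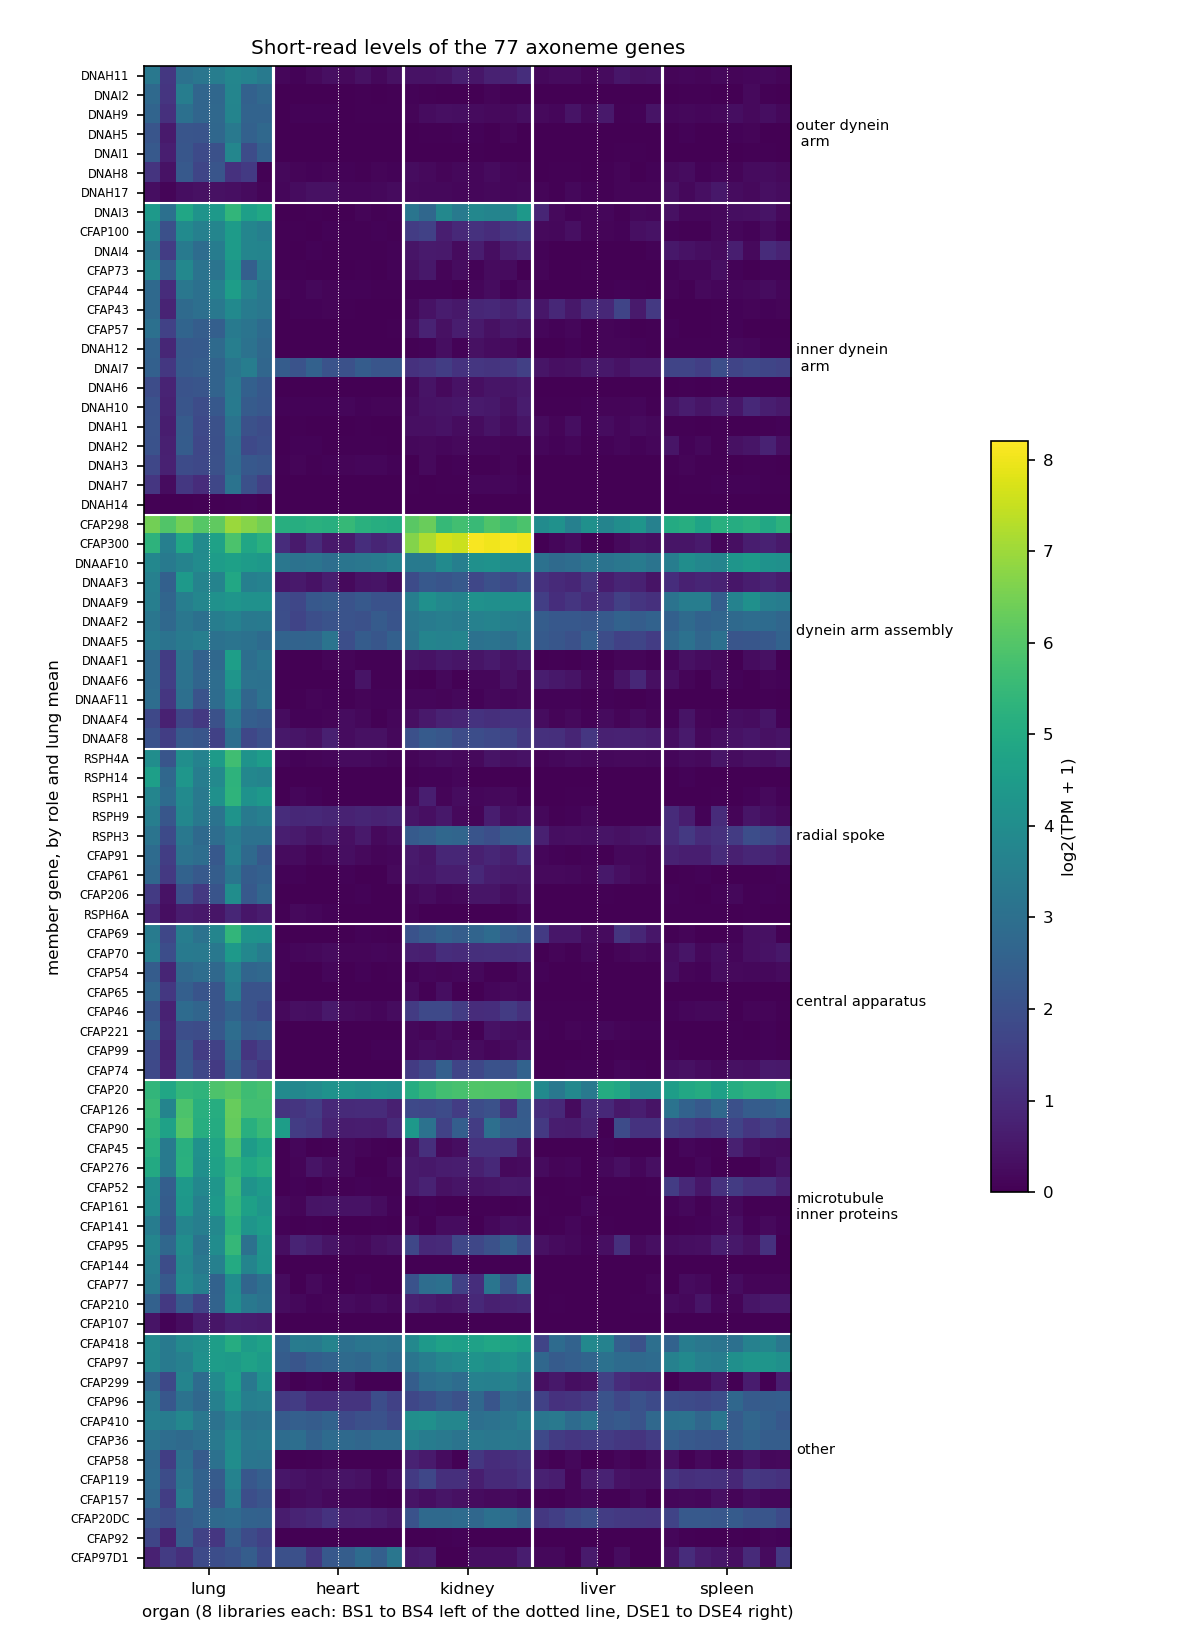
Levels of the 77 axoneme genes as log2(TPM + 1), colour scale at the right, in 40 short-read libraries; columns are libraries grouped by organ with BS left of DSE, rows are genes grouped by role and ordered by lung mean. Most rows are bright in lung alone, with a dark second column (BS2) and a bright sixth column (DSE2), while CFAP300 is brightest in kidney.

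The outer dynein arm, the motor that sets beat frequency, has 7 members. All 6 that were tested were higher in lung, 5 of them at least 4-fold. DNAH11 (chr9:90423092-90768353, build susScr11), a heavy chain mutated in human primary ciliary dyskinesia, had 1.503, 8.94 and 12.5 TPM in lung (lowest, median and highest of 8 libraries), against 0.318, 0.519 and 1.13 TPM in kidney, the next organ. The groups did not overlap, and the log2 difference was 2.50 ± 0.17 (SE; limma adjusted p = 1.02e-15). DNAH11 averaged below 1 TPM in every other organ, so it entered the test only through lung and its p adds no support. DNAI2, an intermediate chain, had 1.38, 5.75 and 12.4 TPM in lung, against no more than 0.167 TPM in any library of another organ. The heavy chain DNAH9, of the distal part of the cilium, averaged 5.86 ± 2.99 TPM in lung, against 0.209 ± 0.162 TPM in liver (SD, n = 8 each). DNAH8 and DNAH17, named after their values were seen, are known as heavy chains of the sperm tail. DNAH8 reached 1.78 ± 1.38 TPM in lung (SD, n = 8) and passed the test there, which it too entered only through lung. DNAH17 stayed below the 1 TPM limit, with means of 0.0750 to 0.247 TPM over the 5 organs.

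The inner dynein arm and its docking proteins, which shape the bend, count 16 members. Of the 15 tested, 14 were higher in lung and 6 at least 4-fold. DNAI3 (chr4:130765342-130826693), an intermediate chain of the double-headed inner arm, had the highest lung level of this class, with 7.11, 22.1 and 41.2 TPM in lung, against 5.63, 12.0 and 19.5 TPM in kidney. Its organs overlapped, and the log2 difference was 0.89 ± 0.19 (SE; limma adjusted p = 0.000141). DNAI4, its partner chain, had 1.73, 9.61 and 21.8 TPM in lung, against at most 1.01 TPM in the other organs' libraries. CFAP100, known as a docking protein of this arm in the alga Chlamydomonas, had 2.97, 12.2 and 21.7 TPM in lung, against 0.602, 1.33 and 1.99 TPM in kidney, with no overlap. The inner arm heavy chains DNAH1, DNAH2, DNAH3, DNAH6, DNAH7, DNAH10 and DNAH12, named after their values were seen, averaged 2.41 TPM (DNAH7) to 5.45 TPM (DNAH12) in lung and no more than 0.528 TPM in any other organ. The tested member that did not pass was DNAI7, named after its values were seen, with 5.45 ± 2.62 TPM in lung, against 3.74 ± 0.605 TPM in heart (SD, n = 8 each; limma adjusted p = 0.0655).

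Dynein arm assembly factors were higher in lung for 6 of 12 members, 3 of them at least 4-fold, and CFAP300 and DNAAF2 were higher in kidney. CFAP298 (chr13:196210011-196224923) had the highest lung level of all members, with 61.3, 87.2 and 123 TPM in lung, against 44.3, 54.7 and 78.9 TPM in kidney and 10.9, 15.0 and 18.5 TPM in liver. Lung and kidney overlapped, and their log2 difference of 0.57 ± 0.12 passed the test (SE; limma adjusted p = 0.000214), but not with median-ratio scaling (0.13, adjusted p = 0.659) or in the BS animals alone (0.32, adjusted p = 0.233). DNAAF1, DNAAF6 and DNAAF11, named after their values were seen, averaged 8.06, 7.63 and 6.46 TPM in lung, and at most 0.396 TPM in any other organ. The assembly factors DNAAF2, DNAAF5, DNAAF9 and DNAAF10 had at least 1.39 TPM on average in every organ. DNAAF2 was higher in kidney, with 10.2 ± 1.003 TPM in kidney, against 8.71 ± 1.70 TPM in lung (SD, n = 8 each), a log2 difference of 0.22 for kidney over lung (limma adjusted p = 0.0153 for the largest p of kidney's 4 comparisons). The count of 2 members led by kidney was 1 without BS2 or without BS4, and 4 without DSE2.

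Of 9 radial spoke members, 8 were tested and 8 were higher in lung, 4 of them at least 4-fold. RSPH4A (chr1:44963886-44985202), a spoke head protein, had 3.45, 16.6 and 50 TPM in lung, against 0.104, 0.244 and 0.393 TPM in spleen, the next organ, a log2 difference of 3.78 ± 0.20 (SE; limma adjusted p = 1.89e-18). It entered the test only through lung, so this p adds no support. RSPH1, another head protein, had 6.22, 15.4 and 39.5 TPM in lung and at most 0.605 TPM elsewhere. RSPH14 had 5.73, 13.2 and 38.6 TPM in lung and was listed at 0 in all 16 heart and liver libraries. RSPH3, a spoke stalk protein named after its values were seen, had 2.58, 7.30 and 10.2 TPM in lung, against 2.93, 4.14 and 5.72 TPM in kidney, which overlap. The untested member was RSPH6A, also named after its values were seen and a sperm spoke protein in mouse, with 0.531 ± 0.215 TPM in lung (SD, n = 8). The RSPH14 locus overlaps GNAZ on the opposite strand, and whether the counting used strand is not stated. Overlap of their exons was not looked at, and whether GNAZ reads entered the RSPH14 level was not tested.

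Central apparatus genes, which encode the projections around the central pair, were higher in lung for 7 of 8 members, 3 of them at least 4-fold. CFAP69 had 2.36, 11.2 and 41.3 TPM in lung, against 3.21, 4.50 and 6.32 TPM in kidney. Lung and kidney overlapped, and the log2 difference of 1.20 ± 0.24 (SE; limma adjusted p = 6.45e-05) did not pass in the BS animals alone (0.58, adjusted p = 0.193). CFAP70 had 2.84, 9.55 and 20.7 TPM in lung and 0.618, 1.13 and 1.23 TPM in kidney, and CFAP54 had 0.809, 5.80 and 11.2 TPM in lung and at most 0.232 TPM in any other library. CFAP74, named after its values were seen, did not pass, with 2.40 ± 1.26 TPM in lung, against 3.05 ± 1.18 TPM in kidney (SD, n = 8 each).

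Microtubule inner proteins, which bind the inner wall of the doublets, had the highest median lung level of the 7 role classes, 19.3 TPM. Of 13 members, 11 of the 12 tested were higher in lung and 9 at least 4-fold. CFAP126 (chr4:89120477-89133039) had 12.1, 48.7 and 76.7 TPM in lung, against 2.99, 4.66 and 7.62 TPM in spleen, with no overlap and a log2 difference of 2.87 ± 0.22 (SE; limma adjusted p = 4.12e-14). Its locus overlaps SDHC on the opposite strand by 2661 bases. CFAP90 had 24.9, 37.8 and 75.9 TPM in lung. In the other organs it was uneven, with 22.6 TPM in the heart of BS1 and at most 1.75 TPM in the other 7 hearts. CFAP276, CFAP45 and CFAP144, named after their values were seen, averaged 27.5, 28.7 and 13.5 TPM in lung and at most 0.750 TPM in any other organ. CFAP20, a conserved protein of the inner junction of the doublet, was the tested member that did not pass. It had 47.3 ± 12.3 TPM in lung, against 52.7 ± 10.4 TPM in kidney (SD, n = 8 each), and an annotated joint identifier overlaps its locus on the same strand.

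The remaining 12 CFAP genes, with other or less settled roles, held 5 that were higher in lung, 2 of them at least 4-fold. CFAP96 was higher in lung, with 9.67 ± 4.50 TPM there, against 4.30 ± 1.69 TPM in kidney (SD, n = 8 each). CFAP97 had 17.4 ± 5.81 TPM in lung, against 14.4 ± 3.32 TPM in spleen (SD, n = 8 each; limma adjusted p = 0.0994, and 0.00734 without BS2). CFAP418 had 19.2 ± 7.63 TPM in lung and 23.0 ± 4.53 TPM in kidney, CFAP299 had 11.2 ± 6.90 TPM in lung and 8.53 ± 2.66 TPM in kidney, and CFAP36 and CFAP410 were also highest in kidney by mean (SD, n = 8 each), none of them past the test. CFAP410 and CFAP418 are known from human retinal disease. CFAP97D1, a sperm tail gene in mouse and named after its values were seen, was the member led by heart, with 4.37 ± 2.13 TPM in heart, against 2.38 ± 1.17 TPM in lung (SD, n = 8 each). In all, 12 members had at least 1 TPM on average in every organ, and 3 of those were higher in lung (CFAP298, CFAP90 and CFAP96).

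**Figure D2:**
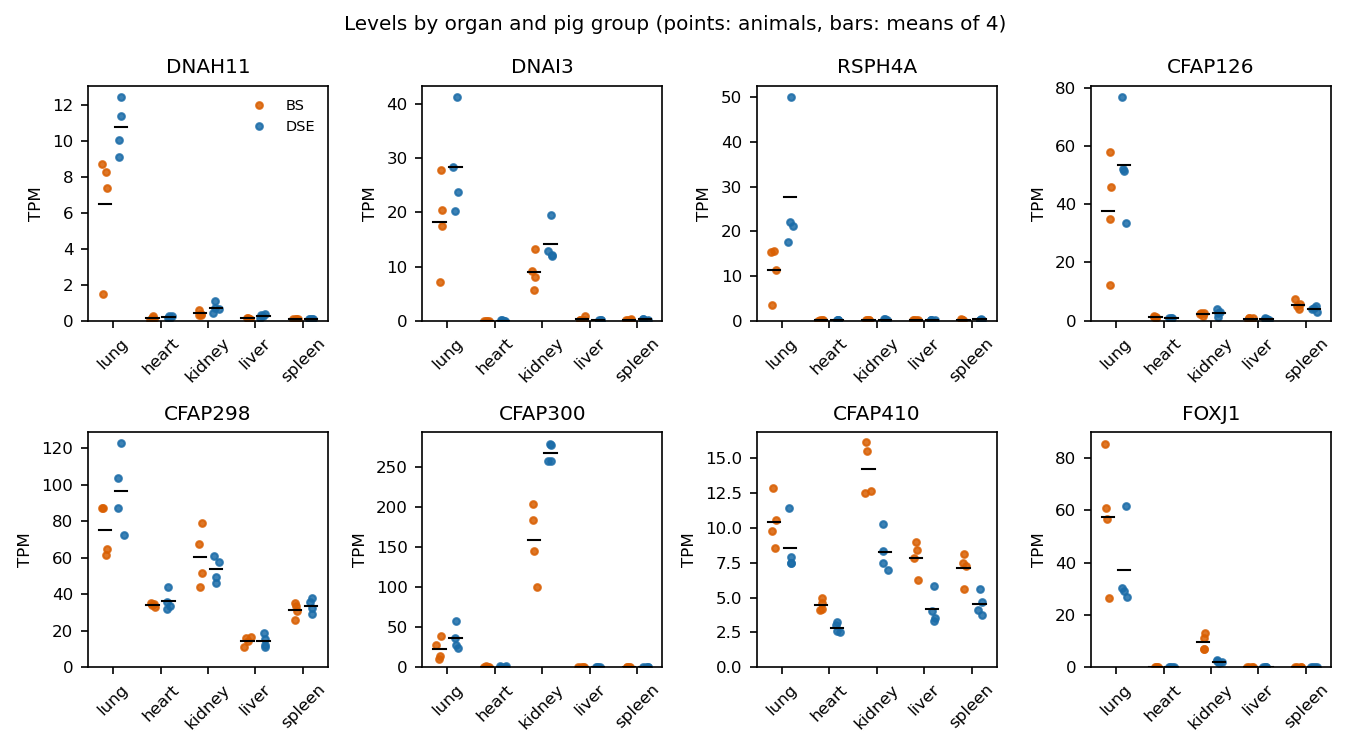
Levels in TPM of 7 axoneme genes and FOXJ1 by organ; points are animals (BS orange, DSE blue) and bars the means of 4. DNAH11 and RSPH4A have at most 1.13 TPM in any library outside lung, and CFAP126 has up to 7.62 TPM in spleen. CFAP298 and CFAP410 are present in every organ, CFAP300 is highest in kidney, and FOXJ1 has a second, lower level in kidney that is higher in BS.

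FOXJ1 (chr12:5307374-5312106) had 26.6, 43.4 and 85.4 TPM in lung, against 1.59, 4.98 and 12.97 TPM in kidney, at most 0.0438 TPM in heart, 0.264 TPM in liver and 0.269 TPM in spleen. Lung and kidney did not overlap, and the log2 difference was 2.95 ± 0.22 (SE; limma adjusted p = 2.21e-14). Among 47 measured genes of multiciliated cells outside the rule, FOXJ1 included, 45 were tested and 42 were higher in lung, 21 at least 4-fold. Those low in the other organs could be tested only through lung, so their calls are no support for that count. Among 34 genes of intraflagellar transport and the BBSome, which serve motile and primary cilia alike, 7 were higher in lung, a share near the 19.1% of all genes, and 0 at least 4-fold. That count was 2 with median-ratio scaling, 2 in BS animals alone and 11 in DSE animals alone. Of 10 genes of male germ cells, PRM1, PRM2, TNP1 and SPATA19 were listed at 0 in all 8 lungs, while TNP2 had 0.527 to 3.24 TPM, AKAP4 averaged 0.657 TPM and ODF2 averaged 16.6 TPM in lung. Of the 10, 3 were tested and 1 was higher in lung.

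CFAP300 was led by kidney. This dynein assembly gene (chr9:32753319-32795298, plus strand) had 101, 230 and 279 TPM in kidney, against 10.7, 27.9 and 57.4 TPM in lung, 0.895 TPM in heart, 0.141 TPM in liver and 0.427 TPM in spleen (medians for the last 3). No lung library reached the lowest kidney library, and the log2 difference of lung minus kidney was -2.89 ± 0.19 (SE; limma adjusted p = 4.07e-16 for the largest p of kidney's 4 comparisons). It was 1 member led by kidney at least 4-fold, where 2.56% of all genes tested were.

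The annotation gives CFAP300 9 transcripts with 2 groups of starts. The 5 upstream-start transcripts, all assembled from long reads, begin between 32753319 and 32753433, and the 4 downstream-start transcripts begin between 32765880 and 32765918. The transcript PB.12013.3 begins 12563 bases upstream of ENSSSCT00000016342, which was the one most used in lung. Their annotated coding sequences are 708 and 804 bases long and differ in the first coding exon, which has 14 coding bases in PB.12013.3 and 110 in ENSSSCT00000016342. No protein or genome sequence was used here.

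The upstream-start transcripts carried the kidney level. They summed to 202 ± 66.5 TPM in kidney, against 3.26 ± 1.26 TPM in lung, whereas the downstream-start transcripts summed to 10.6 ± 3.38 TPM in kidney, against 26.4 ± 14.4 TPM in lung (SD, n = 8 each). The upstream share was 86.4% to 97.7% over the 8 kidneys, against 7.27% to 37.4% over the 8 lungs, and the highest lung share was that of BS2. In limma's test of transcript usage between lung and kidney, added after seeing the data, 2 transcripts of members passed, both of CFAP300, where 3.83% of all transcripts tested did. ENSSSCT00000016342 made up 74.5 ± 13.3% of the gene in lung, against 3.94 ± 4.03% in kidney (SD, n = 8 each; limma adjusted p = 2.54e-06). PB.12013.3 made up 2.87 ± 4.80% in lung, against 67.9 ± 6.71% in kidney (SD, n = 8 each; limma adjusted p = 5.32e-07). Across all 5 organs CFAP97, CFAP298 and DNAAF10 met the limit of 5 TPM in every organ, and 0 of their transcripts passed in limma (background 12.4%), since none shifted by more than 3.49 points.

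**Figure D3:**
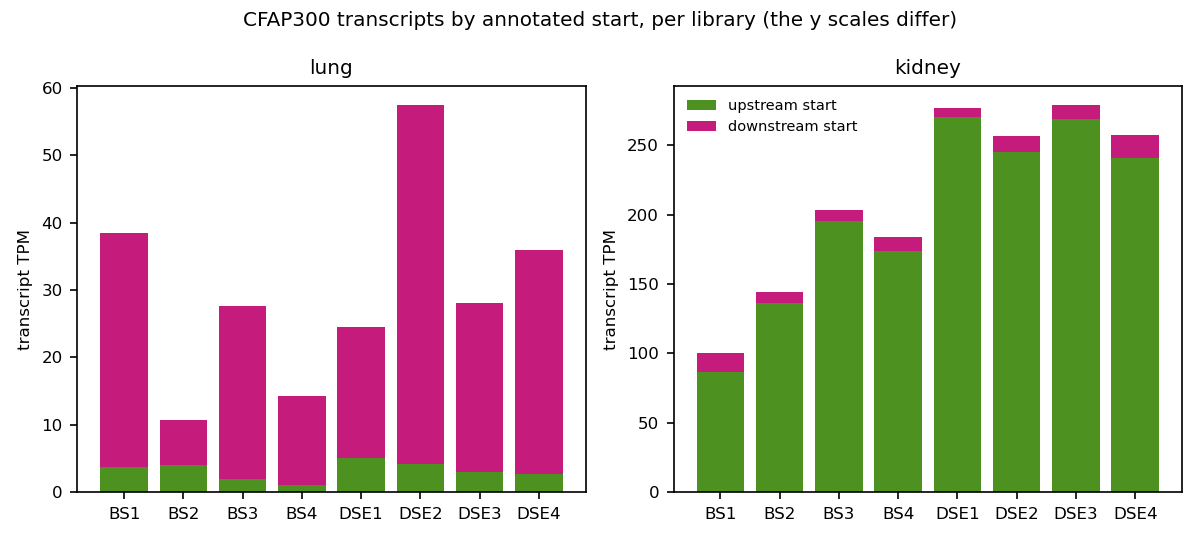
CFAP300 transcript levels in TPM in each lung and kidney library, stacked by annotated start (green upstream, magenta downstream; the y scales differ). Kidney libraries are almost all upstream start, 86.4% to 97.7%, and lung libraries mostly downstream start.

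Full-length long reads of CFAP300 were few in lung. Of 92 reads in the BS kidney library, 89 matched annotated upstream-start transcripts, and of 43 in the DSE kidney library, 39 did, with 0 on downstream-start ones in either. The BS lung library had 4 reads, all of transcripts of the locus that the annotation does not list. The DSE lung library had 15, of which 1 matched an upstream-start transcript, 2 a downstream-start one and 12 none in the annotation. Heart, liver and spleen had 0 reads in 6 libraries, which held 119623 to 368976 reads each.

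Long reads could be given only to genes with a long-read transcript in the annotation, which 19 of the 77 members have, and 18 of these had at least 1 read. No DNAH, RSPH or microtubule inner protein gene is among them, so a count of 0 for those genes is no measure of their level. Libraries held 8 (DSE liver) to 196 (DSE lung) reads of members. With edgeR's quasi-likelihood test over 4110 genes, 3 of the 6 members tested were higher in lung than in each other organ, against a background of 1.73%. The 3, CFAP57, CFAP69 and CFAP70, had at most 8 reads in any library of another organ. They could enter the test only through lung, so their calls are no support for that share. CFAP70 had 13 and 22 reads in lung (BS and DSE), against 0 to 2 in the other 8 libraries (edgeR adjusted p = 0.00569). CFAP57, an inner arm protein, had 18 and 10 in lung and 0 in the other 8 (edgeR adjusted p = 0.0179). CFAP69 had 12 and 31 in lung and 0 to 8 in the others (edgeR adjusted p = 0.0425). DNAI3 had 19 and 32 reads in lung, against 7 and 6 in kidney, and did not pass (edgeR adjusted p = 0.110). The count of 3 was 1 without the BS kidney library, 0 without any other single library and 0 in DESeq2.

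Most axoneme genes had their highest and lowest lung levels in the same animals. Of the 77 members, 68 had their highest lung level in DSE2 and 72 their lowest in BS2, and for the 32 members at least 4-fold higher in lung this held for 32 and 32. How many of all genes had these extremes was not counted, so the pattern is not shown to be particular to the members. The summed level of all members was 815, 342, 914 and 649 TPM in the lungs of BS1 to BS4, and 823, 1636, 893 and 938 TPM in those of DSE1 to DSE4. The highest lung exceeded the lowest 3.04-fold to 21.1-fold over those 32 members, with a median of 8.75-fold, and 1.33-fold to 3.37-fold, with a median of 1.92-fold, over the 6 other lungs. RSPH4A, for example, was 14.5 times higher in DSE2 than in BS2, CFAP298 2.01 times and DNAAF5 1.02 times. The 7 airway cartilage genes summed to 63.1 TPM in DSE2, against 0.726 to 1.68 TPM in the BS lungs and no less than 2.11 TPM in the DSE lungs, and SFTPC was highest in BS2, as given above. The part of these cell types in the spread was not tested.

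**Figure D4:**
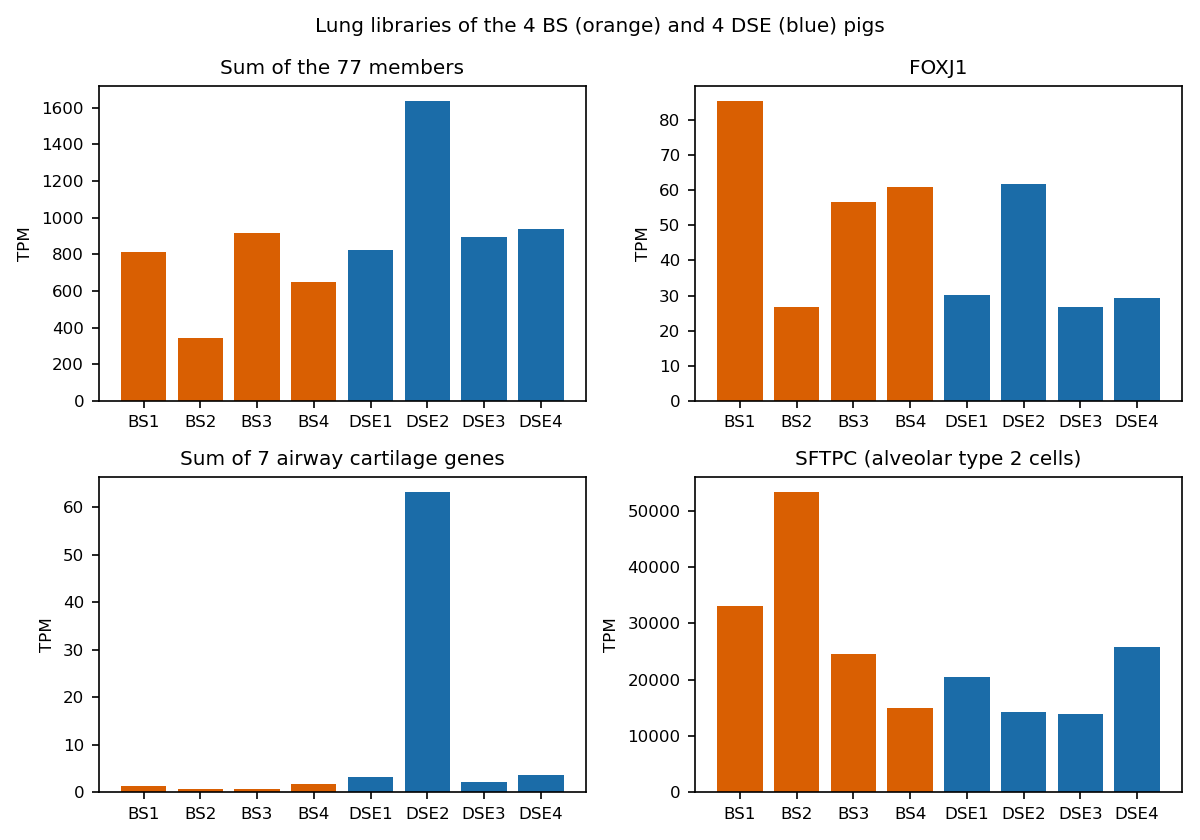
Summed level of the 77 axoneme genes, FOXJ1, summed airway cartilage genes and SFTPC in TPM in the 8 lung libraries (BS orange, DSE blue). The axoneme sum is lowest in BS2 at 342 TPM and highest in DSE2 at 1636 TPM, the cartilage sum is near 0 except in DSE2, and FOXJ1 is highest in BS1.

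Between pig codes, the share of axoneme genes that differed in lung's own fit was not above that of all genes. Of 73 members tested, 17 were lower in BS, where 26.7% of all 15025 genes were, and 0 were higher, where 14.3% were (limma, adjusted p below 0.05). Of the members, 30 had an unadjusted p below 0.05 in either direction. That count over all genes is not given here, so nothing is read from it. The median difference of BS minus DSE was -0.71 over the members and -0.21 over all genes on the log2 scale. Without the lungs of BS2 and DSE2, 10 were lower and 2 higher (background 16.3% and 11.1%), and the medians were -0.17 and -0.13. With median-ratio scaling 9 were lower and 1 higher (18.3% and 23.7%), with medians of -0.45 and 0.03. The count of 17 was 11 without BS1, 8 without DSE2, 11 without DSE3 and 9 without DSE4, and the count of 0 was 1 without BS2. In 1 fit over all 40 libraries, with 1 spread per gene for all organs, 47 members were lower in BS lungs. The share of all genes in that fit is not given here.

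Of the 17 members, 16 had pig codes that did not overlap, as did 84.5% of all genes lower in BS lungs, and 9 were also lower without BS2 and DSE2. Widely expressed members were among them. DNAAF10 had 12.99, 9.30, 11.6 and 14.5 TPM in BS lungs, against 21.9, 24.6, 21.8 and 19.5 TPM in DSE lungs, a log2 difference of -0.82 ± 0.15 (SE; limma adjusted p = 0.00521). CFAP418 had 13.1, 9.16, 13.6 and 15.7 TPM in BS lungs, against 22.6, 32.4, 21.7 and 25.0 TPM in DSE lungs (-0.93 ± 0.19, limma adjusted p = 0.00663). Every DSE lung was above every BS lung for both genes. RSPH1 had 10.5 ± 3.601 TPM in BS lungs, against 23.25 ± 10.95 TPM in DSE lungs (SD, n = 4 each; limma adjusted p = 0.0291, and 0.0587 without BS2 and DSE2). CFAP206, a radial spoke protein named after its values were seen, had the largest difference of the 17, with 1.62, 0.311, 2.84 and 1.576 TPM in BS lungs, against 3.38, 15.3, 3.90 and 5.53 TPM in DSE lungs (-1.52 ± 0.46, limma adjusted p = 0.0277, and 0.0444 without both animals). By role, the median without both animals was -0.36 for the 12 members of other roles, -0.35 for the 15 inner arm members tested, -0.19 for the 12 assembly factors, -0.18 for the 12 microtubule inner proteins, 0.03 for the 6 outer arm, 0.08 for the 8 radial spoke and 0.14 for the 8 central apparatus members. Of other lists, 10 of 46 multiciliated genes outside the rule and 18 of 34 intraflagellar transport and BBSome genes were lower in BS lungs. The share of all genes was 26.7%. Of either list 0 were higher, where 14.3% of all genes were. Neither list was counted without BS2 and DSE2.

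FOXJ1 had 85.4, 26.6, 56.6 and 61.0 TPM in BS lungs, against 30.2, 61.8, 26.9 and 29.3 TPM in DSE lungs. The codes overlapped through BS2 and DSE2, and the log2 difference was 0.59 ± 0.37 (SE; limma adjusted p = 0.215), 0.91 without BS2 (adjusted p = 0.0436) and 1.18 without both (adjusted p = 0.0123). In kidney FOXJ1 was higher in BS, with 11.3, 12.97, 7.11 and 7.18 TPM in BS kidneys, against 1.59, 2.86, 2.35 and 1.87 TPM in DSE kidneys, with no overlap. The log2 difference was 1.72 ± 0.22 (SE; limma adjusted p = 0.00182) and stayed past the test in every alternative run.

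**Figure D5:**
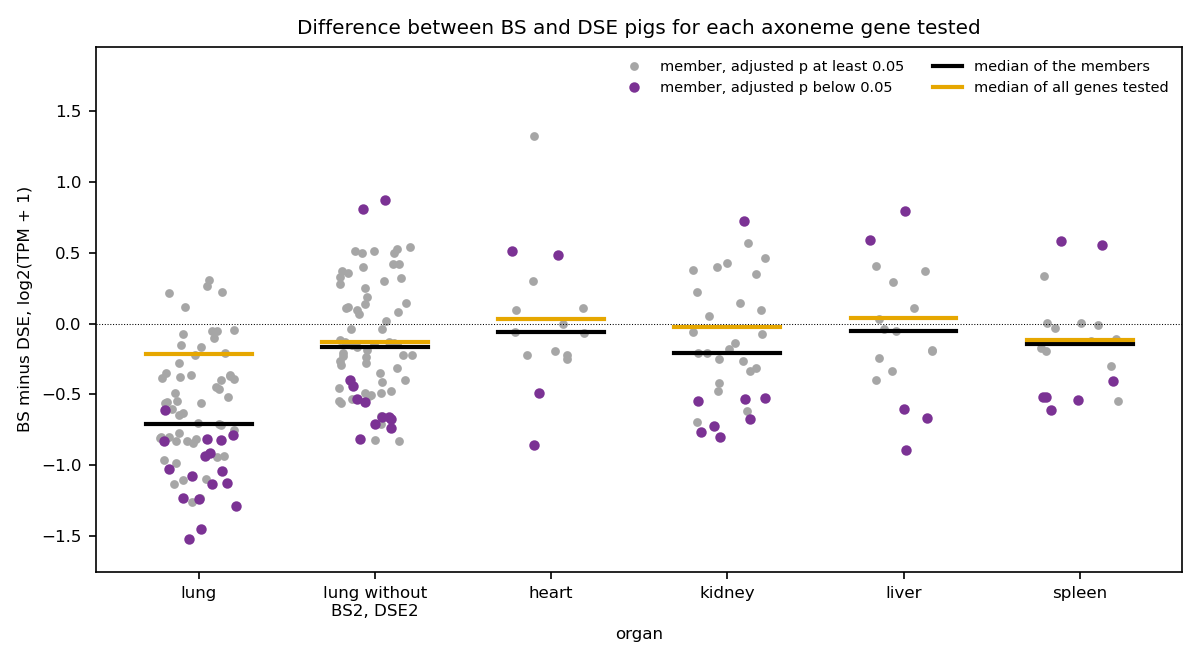
Difference BS minus DSE on the log2(TPM + 1) scale for each axoneme gene tested in each organ, and in lung without BS2 and DSE2; purple points passed limma's test, black bars are the members' medians and yellow bars the medians of all genes tested. The lung median is -0.71 with all animals and -0.17 without those 2, and the other organs' medians lie between -0.21 and -0.05.

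In kidney, 7 of 32 members tested were lower in BS (background 14.5%) and 1 was higher (19.2%). Of the 7, DNAAF4 and CFAP58, named after their values were seen, reached the 1 TPM limit only in DSE kidneys. They averaged 0.567 and 0.360 TPM in BS kidneys, against 1.26 and 1.28 TPM in DSE kidneys, so their calls are no support for the count. CFAP300 was among the lower ones, with 101, 144, 204 and 184 TPM in BS kidneys, against 277, 256, 279 and 257 TPM in DSE kidneys, a log2 difference of -0.80 ± 0.20 (SE; limma adjusted p = 0.0189). The codes did not overlap, but the adjusted p was 0.0506 without BS2, 0.0541 without DSE1, 0.0504 without DSE3 and 0.103 without both BS2 and DSE2. The difference lay in the upstream-start transcripts, with 148 ± 47.6 TPM in BS kidneys, against 256 ± 15.6 TPM in DSE kidneys, while the downstream-start ones had 10.1 ± 2.60 TPM in BS and 11.1 ± 4.39 TPM in DSE kidneys (SD, n = 4 each, not tested). CFAP299 had 6.25 ± 1.36 TPM in BS kidneys, against 10.8 ± 0.898 TPM in DSE kidneys (SD, n = 4 each; limma adjusted p = 0.0114, and 0.0645 without BS2 and DSE2). The count of 7 was 3 without BS2, 1 without DSE1, 4 without DSE2, 3 without DSE3, 4 without DSE4 and 1 without both BS2 and DSE2, and the count of 1 was 3 without BS1, 2 without DSE3 and 0 without BS2 and DSE2.

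Heart, liver and spleen held few members that could be tested. In heart 2 of 15 were lower in BS (background 13.3%) and 2 higher (23.3%), in liver 3 of 17 lower (9.36%) and 2 higher (17.5%), and in spleen 5 of 18 lower (16.5%) and 2 higher (10.8%). Of the 3 lower in liver, CFAP299 reached the 1 TPM limit only in DSE livers and so adds no support to the count, with 0.305 ± 0.0901 TPM in BS livers, against 1.12 ± 0.565 TPM in DSE livers (SD, n = 4 each). The 2 higher in heart were 1 without BS2, BS3, DSE1, DSE2 or DSE3, the 3 lower in liver were 1 without BS2, BS4, DSE1 or DSE2, the 5 lower in spleen were 2 or 3 without BS1, BS3, BS4, DSE2, DSE3 or DSE4, and the 2 higher in spleen were 0 or 1 without BS1, BS4, DSE1, DSE2, DSE3 or DSE4. Over the 5 organs, 22 members passed in at least 1 organ, 9 in at least 2 and 7 in at least 3. Of the 12 members tested in all 5 organs, 8 passed in at least 1, 6 in at least 2 and 6 in at least 3, where 71.0%, 47.9% and 32.8% of the 10433 genes so tested did. Opposite directions in different organs were seen for 0 of the 12 and for 0.431% of those genes.

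CFAP410, a basal body protein, was higher in BS in 4 organs. It had 14.2 ± 1.91 TPM in BS kidneys, against 8.26 ± 1.44 TPM in DSE kidneys, and 7.86 ± 1.17 TPM in BS livers, against 4.17 ± 1.13 TPM in DSE livers (SD, n = 4 each; limma adjusted p = 0.00841 and 0.0120, and 0.0732 and 0.0753 without BS2 and DSE2). In heart and spleen the log2 differences were 0.51 and 0.55 (limma adjusted p = 0.00687 and 0.0287), and in lung 0.26 (adjusted p = 0.245). DNAAF5, an assembly factor, was higher in BS in heart, liver and spleen, by 0.49, 0.59 and 0.58 on the log2 scale (limma adjusted p = 0.0432, 0.0186 and 0.0221, and 0.0698, 0.0942 and 0.0750 without BS2 and DSE2). Its locus overlaps PRKAR1B on the opposite strand. CFAP96 and CFAP97 were lower in BS in 4 organs each. Without BS2 and DSE2, CFAP96 did not pass in lung (limma adjusted p = 0.0612) or liver (0.0621), nor CFAP97 in kidney (0.148). CFAP97 had 11.2, 14, 10.9 and 10.2 TPM in BS spleens, against 15.96, 18.35, 18.4 and 16.2 TPM in DSE spleens, with no overlap (limma adjusted p = 0.0152). CFAP96 had 2.86, 2.65, 2.44 and 2.79 TPM in BS spleens, against 5.604, 4.10, 4.35 and 4.52 TPM in DSE spleens, also without overlap (limma adjusted p = 0.0133).

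Whether the BS minus DSE difference varied between organs was tested in 1 limma fit over all 40 libraries. It did so for 13 of the 73 members tested, against 8.4% of 16905 genes, and for FOXJ1. All 13 averaged at most 0.272 TPM in heart, liver and spleen, where log2(TPM + 1) holds any difference near 0. All 13 also averaged below 1 TPM in kidney, where that scale understates a difference, so nothing is read from the count. RSPH1 had the largest F of the members, 7.74 (limma adjusted p = 0.00635), followed by CFAP206 at 7.72 (0.00646), and FOXJ1 had 9.90 (0.00158). The count of 13 was 5 without BS2, 7 without DSE1, 4 without DSE2, 6 without DSE3, 6 without DSE4 and 4 without both BS2 and DSE2, and it was 0 with a pseudocount of 0.1 TPM.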

How the data were processed

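The authors deposited gene and transcript TPM, with columns summing to 1000000, and, for each assembled transcript, counts of full-length reads. The tools STAR 2.7.10a and Salmon 1.10.1 and the genome susScr11 appear, per the submitters' processing notes, without saying which step made which table. Per the file headers, rtracklayer 1.58.0 wrote the annotation. Per the labels' protocols, extraction used Trizol and acid phenol, and only the short-read libraries had ribosomal RNA removed. Left aside were 20 gene, 20 transcript and 5 full-length columns under a code absent from the labels, and the DT samples were not analysed here. Short-read depth is unknown, since TPM keeps none, so the precision of low values is unknown too. Long-read libraries held 119623 to 456783 reads.

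Comparisons of organs and of pig codes used limma 3.58.1 (R 4.3.3), trend included, on log2(TPM + 1) for genes that averaged 1 TPM or more in any compared group. The organ fit had pig code as a term, and each organ had its own fit for BS against DSE. Median-ratio scaling, a pseudocount of 0.1 TPM, no filter, a replicate block, fits per code and each animal left out were alternatives. Usage was the log2 of a transcript over the remainder of its gene, with 0.5 TPM added to each, for genes with at least 5 TPM in every compared organ, and needed a shift of 20 points. Names that differed from the annotation for 12 transcripts of members were matched by identifier. Full-length reads were summed per gene by the transcript's gene (51.9% of reads) or a locus of 1 gene (35.9%); reads at loci of several genes (3.16%) or of none (9.10%) were dropped, and edgeR 4.0.16 was used, with DESeq2 1.42.0 as an alternative. The scripts were checked on simulated data.

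Animal numbers pair the organs of an animal by their titles; deviations of such pairs correlated from -0.11 to 0.45, over 0.1 in 47 of 80 pairs. Members and gene lists were chosen with earlier results of these data known. Genes named are FOXJ1, the 3 members of highest lung mean in each role class, up to 8 highest outside lung, up to 8 of lowest p between codes, up to 5 with most full-length reads in lung and those with a shift in transcript usage; others are marked as chosen after their values were seen. For 27 members the locus overlaps another annotated gene, and strand use in counting is not stated.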

Additional observations from a re-analysis of the deposited data

Results flagged for a closer look

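In 120 groups of 4 libraries, 17 held a library far from the other 3, where chance flags about 1 in 20. The lung of DSE2 was the high one for 13 of the 17. It had 21.7 TPM of CFAP100, 14.6 TPM of CFAP36, 11.4 TPM of CFAP410, 11.2 TPM of CFAP54, 18.6 TPM of CFAP96, 18.3 TPM of DNAAF9 and 12.0 TPM of DNAH9. It also had 12.4 TPM of DNAI2, 61.75 TPM of FOXJ1, 39.5 TPM of RSPH1, 38.6 TPM of RSPH14 and 50 TPM of RSPH4A, and its members summed to 1636 TPM, against 823 to 938 TPM in the other DSE lungs. In kidney, DNAAF5 was low in BS1 at 7.95 TPM, DNAAF9 was high in DSE1 at 16.8 TPM, DNAH11 was high in BS4 at 0.620 TPM and DNAI3 was high in DSE4 at 19.5 TPM.

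The difference between BS and DSE varied between the 5 organs, by limma's interaction F, for FOXJ1 (9.90) and 13 members, against 8.4% of all genes. The members were RSPH1 (7.74), CFAP206 (7.72), CFAP210 (7.62), CFAP141 (7.39), DNAAF4 (7.25), DNAH7 (6.87), DNAH5 (6.50), DNAH3 (5.73), CFAP58 (5.43), DNAH6 (5.36), CFAP161 (5.27), DNAH12 (5.22) and RSPH4A (4.69), with adjusted p from 0.00635 to 0.0493. The 13 averaged at most 0.272 TPM in heart, liver and spleen, where log2(TPM + 1) holds differences near 0, and below 1 TPM in kidney. With a pseudocount of 0.1 TPM 0 members passed, so nothing is read from the count.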

How the results depend on the processing

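For genes named by the listed criteria, no difference of lung from the next organ that passed its test changed direction under an alternative. The same held for the BS minus DSE differences checked, which were those of lowest p and those of FOXJ1 and CFAP300. Other members were not checked for direction, and the cause of the shifts below was not tested. Short-read depth is unknown, and long reads were few. With median-ratio scaling, members at least 4-fold higher in lung numbered 16, those led by heart 3 and by kidney 6, lung members lower and higher in BS 9 and 1, members higher in BS 4 in kidney and 4 in liver, and those varying between organs 7. With a pseudocount of 0.1 TPM, 0 were led by heart and 0 varied between organs. In BS animals alone 0 were led by heart, in DSE animals alone 1 by kidney, and without the pig term 1 by kidney. With no filter, 5 were lower in BS in lung and 3 in spleen, and 1 was higher in heart, 3 in kidney and 0 in spleen. In 1 fit over all libraries 47 were lower in BS lungs and 2 higher in BS kidneys, and the shares of all genes in that fit are not given. Without BS2 and DSE2 (chosen after seeing the data), 10 were lower and 2 higher in lung, 1 and 1 in heart, 1 and 0 in kidney, 0 and 0 in liver and 3 and 1 in spleen, and 4 varied between organs. Usage differed between lung and kidney for 4 transcripts at a limit of 2 TPM. Long-read calls were 0 with DESeq2 and 0 without the pig term, which is that fit's replicate block.

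BS and DSE animals share only a number: correlations ran from -0.24 to 0.08, over 0.1 in 0 of 20 pairs. With the number as a replicate block, 4 members were lower in BS in lung, 4 in kidney, 1 in liver and 3 in spleen, and 1 was higher in liver; with the animal as a block, 57 were higher in lung and 19 varied between organs.

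Leaving out 1 animal at a time gave 57 to 59 members higher in lung, 29 to 38 at 4-fold, 1 to 4 led by kidney, and lower and higher counts in BS of 8 to 18 and 0 to 1 in lung, 2 to 3 and 1 to 2 in heart, 1 to 8 and 1 to 3 in kidney, 1 to 3 and 2 to 3 in liver and 2 to 5 and 0 to 2 in spleen. Between organs 4 to 16 varied, and long-read calls ran from 0 to 1.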
